A study of Homo sapiens with 8 samples.

Results

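The genes described here are 10 genes of protein folding and stress sensing in the endoplasmic reticulum (ER): the sensors ERN1 and ATF6 and the transcription factor XBP1, the chaperones and folding factors HSPA5, HSP90B1, CALR, PDIA4 and SDF2L1, and the degradation genes HERPUD1 and EDEM1. They were picked by symbol, as a list set with earlier results of these data known, and all 10 were found among the 19056 genes matched on the arrays. They were measured in A549 cells, an established line from a human lung carcinoma, on 8 single-dye Agilent whole human genome arrays. One series of 4 arrays held a control and cells given 1.25, 5 or 20 µg/mL of EEDS, the ethanol extract of Descurainia sophia seeds. The other series of 4 arrays held its own control and cells given 3.75, 15 or 60 nM helveticoside, a cardiac glycoside purified from that extract. The study calls its control group a vehicle control and gives DMSO as the solvent of EEDS. No group carried a genetic change or any agent beyond these. RNA from 3 cultures was pooled before labelling, so each dose had 1 array and the spread between cultures could not be seen. The labels give 48 h of exposure, and the methods of the study give a shorter time for the arrays.

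Secretory and membrane proteins fold in the ER, where HSPA5 (BiP) and HSP90B1 (GRP94) bind unfolded chains, CALR (calreticulin) holds glycoproteins and calcium, and PDIA4 forms disulfide bonds. When unfolded chains accumulate, the unfolded protein response is started by ERN1 (IRE1), which splices the RNA of XBP1, by ATF6, which is cut to free a transcription factor, and by PERK, which slows translation and raises ATF4. The response is known to raise the RNA of ER chaperones and of ER-associated degradation (ERAD), the route by which misfolded proteins are carried out of the ER and destroyed. Arrays of this kind read RNA levels only, so splicing of XBP1, cutting of ATF6 and protein levels were not measured.

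ATF6 is known to act on the ER stress element (ERSE), CCAAT and CCACG with 9 bases between them, and on a shorter form, ERSE-II, ATTGG and CCACG with 1 base between them. Both were searched on both strands in RefSeq promoters of GRCh38.p14, each running from 250 bases before the start of a transcript to 50 bases after it, and all 10 genes had such a promoter. An exact ERSE lay in promoters of HSPA5, HSP90B1, XBP1 and CALR, 4 of the 10 genes, beside 25 of 27305 genes (0.0916%). An exact ERSE-II lay in those of HERPUD1 and SDF2L1, beside 19 genes (0.0696%). The 10 genes were picked as genes of ER folding and stress, so these counts are no test of enrichment. The sequences are shown because genes that share these elements differed in direction on the arrays, with the elements in capitals, 5′ to 3′ along the strand of the gene. They are the whole promoters of HSPA5 (chr9:125241294-125241593, minus strand), HERPUD1 (chr16:56931892-56932191, plus strand) and SDF2L1 (chr22:21642052-21642351, plus strand), and the stretches around the elements of HSP90B1 (chr12:103930196-103930359, plus strand), XBP1 (chr22:28800583-28800641, minus strand) and CALR (chr19:12938364-12938422, plus strand).
HSPA5: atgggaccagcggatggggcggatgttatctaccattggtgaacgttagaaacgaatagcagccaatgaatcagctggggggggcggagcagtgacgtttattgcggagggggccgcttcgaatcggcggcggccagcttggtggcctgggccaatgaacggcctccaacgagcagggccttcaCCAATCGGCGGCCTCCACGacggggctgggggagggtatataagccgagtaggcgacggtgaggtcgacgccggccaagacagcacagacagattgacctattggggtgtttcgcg
HERPUD1: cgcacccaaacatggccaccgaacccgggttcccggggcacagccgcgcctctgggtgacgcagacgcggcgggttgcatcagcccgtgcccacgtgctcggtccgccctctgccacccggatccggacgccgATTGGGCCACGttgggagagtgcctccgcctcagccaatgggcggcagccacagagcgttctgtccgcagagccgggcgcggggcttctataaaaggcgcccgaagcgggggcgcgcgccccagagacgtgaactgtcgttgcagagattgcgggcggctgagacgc
SDF2L1: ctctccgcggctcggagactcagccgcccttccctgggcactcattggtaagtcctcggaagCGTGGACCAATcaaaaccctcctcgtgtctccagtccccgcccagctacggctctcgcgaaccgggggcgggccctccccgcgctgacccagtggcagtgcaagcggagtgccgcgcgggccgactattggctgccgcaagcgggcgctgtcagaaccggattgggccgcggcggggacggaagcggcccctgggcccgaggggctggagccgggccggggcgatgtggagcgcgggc
HSP90B1: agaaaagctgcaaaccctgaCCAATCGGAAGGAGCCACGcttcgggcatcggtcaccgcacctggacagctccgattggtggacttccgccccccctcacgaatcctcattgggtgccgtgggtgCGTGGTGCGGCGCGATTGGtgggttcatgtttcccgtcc
XBP1: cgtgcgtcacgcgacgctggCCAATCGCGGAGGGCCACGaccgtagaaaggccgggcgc
CALR: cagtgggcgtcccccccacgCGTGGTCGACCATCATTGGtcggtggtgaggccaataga
A pair of ERSE matches lay in the HSP90B1 promoter, on opposite strands. The UPR element TGACGTGG, a site of XBP1, was in no promoter of the 10 genes and in those of 253 of 27305 genes (0.927%).

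The signal of each probe was quantile-normalized over the 8 arrays and put on the log2 scale, which is called the level here. A log2 ratio is the level at a dose minus that of the control of the same series, and the 3 ratios of a series therefore share 1 control array. Of the probe spots, 54.5 to 64.9% per array were well above background and none was saturated. The 10 genes were well above background on all 8 arrays except ERN1, which was so on the 4 EEDS arrays alone. Between the control arrays of the series, the levels of the other 9 genes differed by −0.39 to 0.10, with a median size of 0.19, and those of 19046 genes had a standard deviation of 0.65 about their median difference of −0.04.

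**Figure D1:**
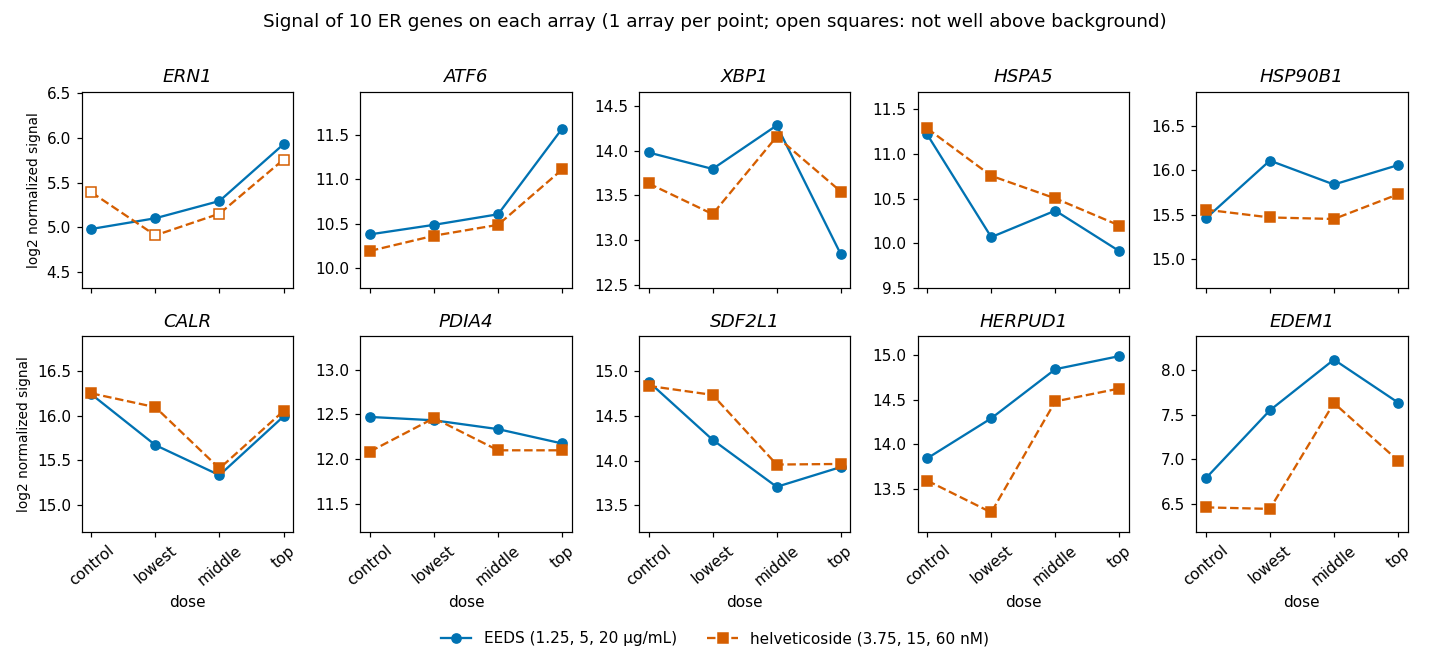
The level (log2 of the quantile-normalized signal) of each of the 10 genes is plotted against the dose, with circles for the EEDS series and squares for the helveticoside series, 1 array per point and a vertical range of the same length in every panel. HSPA5 and SDF2L1 lay under their controls on every treated array, HERPUD1 and EDEM1 reached their highest levels at the middle or the top dose, and ATF6 was highest at the top dose of each series.

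Of the 10 genes, HERPUD1, EDEM1 and ATF6 were higher and HSPA5, SDF2L1 and CALR lower at the middle or the top dose of both agents, so the ER genes did not move as 1 group. No slope across the doses passed the test in limma's trend fit, for any of the 10 genes with EEDS or of the 9 measured with helveticoside (slope per dose step, adjusted p from 0.077 to 0.780 for EEDS and from 0.097 to 0.944 for helveticoside). Over all genes the same fit called 15.2% of 19046 genes for EEDS and 11.3% of 19056 for helveticoside. At an unadjusted p under 0.05, the slopes of 4 genes passed for each agent (HSPA5, SDF2L1, ATF6 and HERPUD1), beside 33.5% of all genes for EEDS and 29.9% for helveticoside. A second limma fit, added after the values had been seen, took the control, lowest, middle and top arrays of the series as pairs, with the series as a block and 3 residual degrees of freedom. It asks for a change that the agents shared at a dose step. Its p-values rest on how far the series differed over all the steps together, moderated across genes, and not on the spread between cultures. Of the 9 genes well above background in both series, 5 changed in that fit at the middle dose (22.2% of all genes), 4 at the top dose (38.3%) and 0 at the lowest dose (0.0105%). These shares are of 19046 genes, which were not limited by signal as the 9 were. With that limit 11493 genes remained, of which 1865 were called higher and 1830 lower at the middle dose. At the top dose 3086 of them were called higher and 3178 lower, a larger share than 4 of 9. Below, rose and fell refer to this fit and to its adjusted p.

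Among the sensors, ATF6, the membrane-bound factor that the Golgi proteases release, had EEDS levels of 10.38 on the control and 10.49, 10.61 and 11.57 at 1.25, 5 and 20 µg/mL. In the helveticoside series its levels were 10.20 on the control and 10.37, 10.49 and 11.11 at 3.75, 15 and 60 nM. All 6 treated arrays were above their controls, as for 17.1% of all genes, and the top doses stood apart from the lower ones. The log2 ratio was 1.19 at 20 µg/mL EEDS and 0.91 at 60 nM helveticoside, and ATF6 rose at the top dose by 1.05 (SE 0.11, limma adjusted p = 0.0038) and from the middle to the top dose by 0.79 (adjusted p = 0.031). At the middle dose the difference from control was 0.26 (adjusted p = 0.190).

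ERN1, the kinase and RNase that splices XBP1 RNA, had EEDS levels of 4.98, 5.10, 5.29 and 5.93 from the control to 20 µg/mL, each above the one before. Its log2 ratio at 20 µg/mL was 0.95 and its slope 0.30 per step (SE 0.14, limma adjusted p = 0.190). On the helveticoside arrays it read 5.39, 4.91, 5.15 and 5.76 without being well above background on any of them, so no ratio is given there.

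XBP1, whose probe had 10 spots per array with a standard deviation of 0.02 to 0.05 among them, had EEDS levels of 13.98, 13.80, 14.28 and 12.84. In the helveticoside series the levels were 13.63, 13.29, 14.16 and 13.54. In both series the middle dose gave the highest level, and the lowest level came at 20 µg/mL EEDS but at 3.75 nM helveticoside. The ratio of −1.14 at 20 µg/mL lay beside −0.09 at 60 nM, the widest gap between top doses among the members with a ratio in both series. Neither the middle dose (0.41, SE 0.31, limma adjusted p = 0.425) nor the top dose (−0.62, adjusted p = 0.208) passed the test. The difference between the slopes of the agents, helveticoside minus EEDS, was 0.35 per step with a 95% interval from −0.37 to 1.07.

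HSPA5, the HSP70 chaperone of the ER that also holds the sensors inactive, had EEDS levels of 11.22 on the control and 10.07, 10.37 and 9.91 at 1.25, 5 and 20 µg/mL. With helveticoside its levels were 11.29, 10.76, 10.50 and 10.20. Every treated array was below its control, as for 16.5% of all genes, by at least 0.53. The controls differed by 0.07 for HSPA5, and with a standard deviation of 0.48 over genes well above background on all arrays. The ratios were −1.15, −0.85 and −1.31 for EEDS and −0.53, −0.78 and −1.09 for helveticoside, or 2.48-fold and 2.13-fold lower at the top doses. HSPA5 fell by 0.82 at the middle dose (SE 0.17, limma adjusted p = 0.036) and by 1.20 at the top dose (adjusted p = 0.0075), and its slopes were −0.36 and −0.35 per step (SE 0.12; adjusted p = 0.108 and 0.131). At the lowest dose the difference of −0.84 had a limma adjusted p of 0.129. These values rest on 1 probe with 1 spot per array, as do those of ERN1, ATF6, HERPUD1, PDIA4, SDF2L1, EDEM1 and CALR. The mean level of HSPA5, 10.54, was above that of 72.8% of genes, beside 98.4% for HSP90B1 and 98.6% for CALR. How well the probe reads HSPA5 RNA was not tested.

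SDF2L1, a partner of HSPA5 that keeps unfolded chains soluble, had EEDS levels of 14.89, 14.23, 13.71 and 13.93 and helveticoside levels of 14.84, 14.74, 13.96 and 13.96. It was under its control on all 6 treated arrays, with ratios of −0.65, −1.18 and −0.96 for EEDS and −0.10, −0.88 and −0.88 for helveticoside. SDF2L1 fell by 1.03 at the middle dose (SE 0.15, limma adjusted p = 0.018) and by 0.92 at the top dose (adjusted p = 0.011). Its promoter holds an ERSE-II, as does that of HERPUD1, which rose.

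CALR had EEDS levels of 16.24, 15.67, 15.33 and 15.99 and helveticoside levels of 16.25, 16.09, 15.41 and 16.05. The lowest level was at the middle dose of each series, and the top doses were back to within 0.25 and 0.20 of the controls, which themselves differed by 0.01. CALR fell by 0.87 at the middle dose (SE 0.12, limma adjusted p = 0.016) and rose from the middle to the top dose by 0.65 (adjusted p = 0.043), while the top dose differed from control by −0.22 (adjusted p = 0.223). Only ATF6 and CALR, 2 of the 9 genes, changed between those doses, beside 10.0% of all genes.

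HSP90B1, the HSP90 chaperone of the ER, had EEDS levels of 15.46, 16.11, 15.84 and 16.06, with all 3 treated arrays above the control, as for 39.6% of all genes. With helveticoside the levels of 15.56, 15.47, 15.45 and 15.73 lay on both sides of the control. A second probe for this gene gave EEDS ratios of 0.82, 0.60 and 0.69 beside 0.65, 0.38 and 0.60 from the first, and helveticoside ratios of 0.07, −0.04 and 0.15 beside −0.09, −0.10 and 0.17. The top dose differed from control by 0.39 (SE 0.18, limma adjusted p = 0.177), and the slopes of the agents differed by −0.10 per step (95% interval −0.40 to 0.20). Scaling each array to its 75th percentile instead made the top dose of HSP90B1 pass, with an adjusted p of 0.013.

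PDIA4, an oxidoreductase of the disulfide isomerase family, had EEDS levels of 12.47, 12.43, 12.33 and 12.17 and helveticoside levels of 12.08, 12.46, 12.10 and 12.10. The EEDS control was the highest and the helveticoside control the lowest of all 8 arrays, so the range was the 0.39 by which the controls differed. No step passed the test, and the lowest adjusted p among its comparisons with the control was 0.434.

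For the degradation genes, HERPUD1, a membrane protein that assembles the ERAD complex, had EEDS levels of 13.84, 14.29, 14.84 and 14.99. Its helveticoside levels were 13.59, 13.23, 14.48 and 14.62, so the middle and top doses of both agents were above the controls and 3.75 nM was below. The ratios were 0.45, 0.999 and 1.15 for EEDS and −0.36, 0.89 and 1.03 for helveticoside. HERPUD1 rose by 0.94 at the middle dose (SE 0.22, limma adjusted p = 0.044) and by 1.09 at the top dose (adjusted p = 0.019), with slopes of 0.40 and 0.43 per step (SE 0.13; adjusted p = 0.101 and 0.097). The call at the middle dose was lost when each series was normalized alone or the variances were moderated without a trend, with a highest adjusted p of 0.056.

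EDEM1, a lectin that hands misfolded glycoproteins to ERAD, had EEDS levels of 6.79, 7.55, 8.12 and 7.64 and helveticoside levels of 6.46, 6.44, 7.63 and 6.99. The middle dose was the highest of each series, with ratios of 1.33 at 5 µg/mL and 1.17 at 15 nM, and the top doses stood at 0.85 and 0.52. EDEM1 rose by 1.25 at the middle dose (SE 0.22, limma adjusted p = 0.025), and the top dose differed by 0.69 (adjusted p = 0.069). The top-dose value was 0.37 with the signal as scanned, with normexp or with scaling to the 75th percentile, and it passed over genes well above background on all 8 arrays (adjusted p = 0.025).

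**Figure D2:**
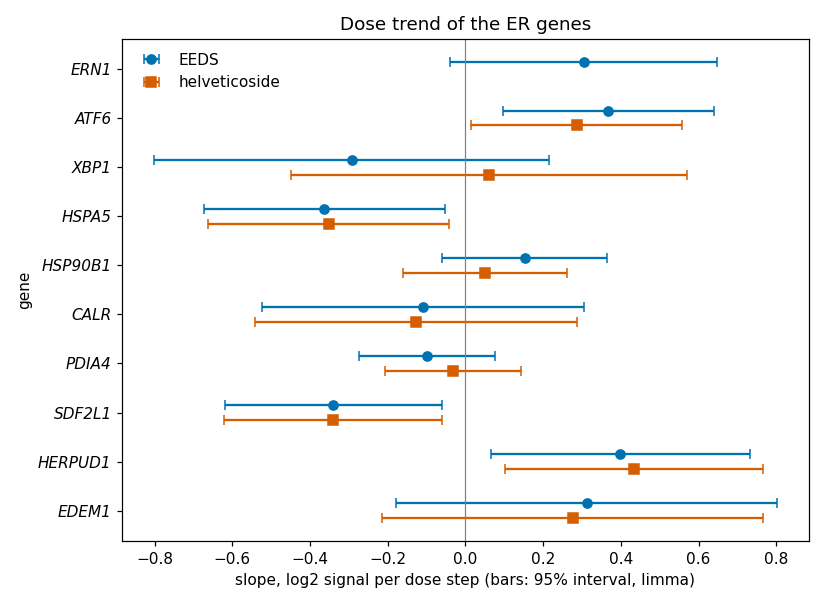
Slopes of the level per dose step from limma's trend fit are plotted for the 10 genes, with circles for EEDS, squares for helveticoside and bars for the 95% interval of each slope. The intervals of HSPA5 and SDF2L1 lay below 0 and those of ATF6 and HERPUD1 above 0 for both agents before adjustment, and ERN1 has no helveticoside point because it was not well above background there.

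None of the 9 genes measured in both series passed the test of a slope difference between the agents (limma adjusted p = 1.0 for each, 0 of the 9 at an unadjusted p under 0.05), beside 0.0% of 19046 genes called and 2.76% at an unadjusted p under 0.05. The steps of the agents are not matched amounts, and the intervals were wide: for HSPA5 the difference was 0.01 per step with a 95% interval from −0.43 to 0.45, and for HERPUD1 it was 0.04 with an interval from −0.43 to 0.51. At 20 µg/mL EEDS, 2 of the 10 genes were over 2-fold higher and 2 over 2-fold lower (13.4 and 14.6% of all genes, 28.0% together), and at 60 nM helveticoside 1 of 9 was higher and 1 lower (10.9 and 12.9%, 23.8% together). The median log2 ratio of the 10 genes was 0.17 at 20 µg/mL EEDS, and that of the 9 with a ratio was 0.01 at 60 nM helveticoside, against 0.02 and −0.00 over all genes. Over the same 9 genes, without ERN1, the EEDS median was −0.25, so its sign rested on ERN1.

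The order of the levels over the arrays can be set against the other genes. With each series centred on its own mean, SDF2L1 correlated with HERPUD1 at r = −0.93 and with EDEM1 at r = −0.93, and HERPUD1 with EDEM1 at r = 0.83 (Pearson, 8 arrays, which share their dose steps). Among 11492 genes well above background on all 8 arrays, those most like HSPA5 were SAAL1 (r = 0.994), RCOR2 (r = 0.994) and ZNF124 (r = 0.993). Those most like HERPUD1 were TNPO3 (r = 0.997), ENDOV (r = 0.993) and BCL2L1, an inhibitor of apoptosis (r = 0.993). For EDEM1 they were NUPR1, a stress-induced nuclear protein (r = 0.982), MTHFD2, a mitochondrial folate enzyme (r = 0.977), and ZNF813 (r = 0.975).

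HSPA5 and HSP90B1 have relatives in other compartments, some of which stood further from control. HSPA8, the constitutive HSP70 of the cytosol, had log2 ratios of −2.52, −3.70 and −4.32 with EEDS and −1.13, −3.22 and −4.16 with helveticoside (slopes −1.41 and −1.46, limma adjusted p = 0.019 and 0.022). HSPA1A, the heat-inducible HSP70, reached −2.96 and −3.09 at the top doses, and its probe may also read the near-identical HSPA1B. HSPA9, the mitochondrial HSP70, was at 0.84 and 0.87 and rose at the top dose by 0.86 (adjusted p = 0.0025). On all 3 arrays of each series HSPA5 lay between HSPA9 on one side and HSPA8 and HSPA1A on the other. Not all cytosolic relatives were low: HSPA4 was at 0.72 and 0.18, HSPA4L at 0.91 and 1.07, HSPA6 at 0.77 and 0.59 and HSPA14 at 0.995 and 0.41 at the top doses (HSPA4, HSPA6 and HSPA14 were named after their values were seen).

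In the HSP90 family the cytosolic HSP90AA1 reached −1.17 with EEDS and −1.54 with helveticoside at the top doses, and HSP90AB1 reached −1.46 and −1.57. Both fell at the top dose (−1.36 and −1.51, limma adjusted p = 0.0067 and 0.0063), whereas HSP90B1 was at 0.60 and 0.17. TRAP1, the mitochondrial HSP90, fell by 0.47 (adjusted p = 0.018). Near relatives of the other members were mixed: CANX (calnexin), the membrane-bound counterpart of CALR, fell by 0.57 (adjusted p = 0.0073), SDF2, the constitutive relative of SDF2L1, rose by 0.51 (adjusted p = 0.012), and ATF6B, the relative of ATF6, differed by −0.58 (adjusted p = 0.086).

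**Figure D3:**
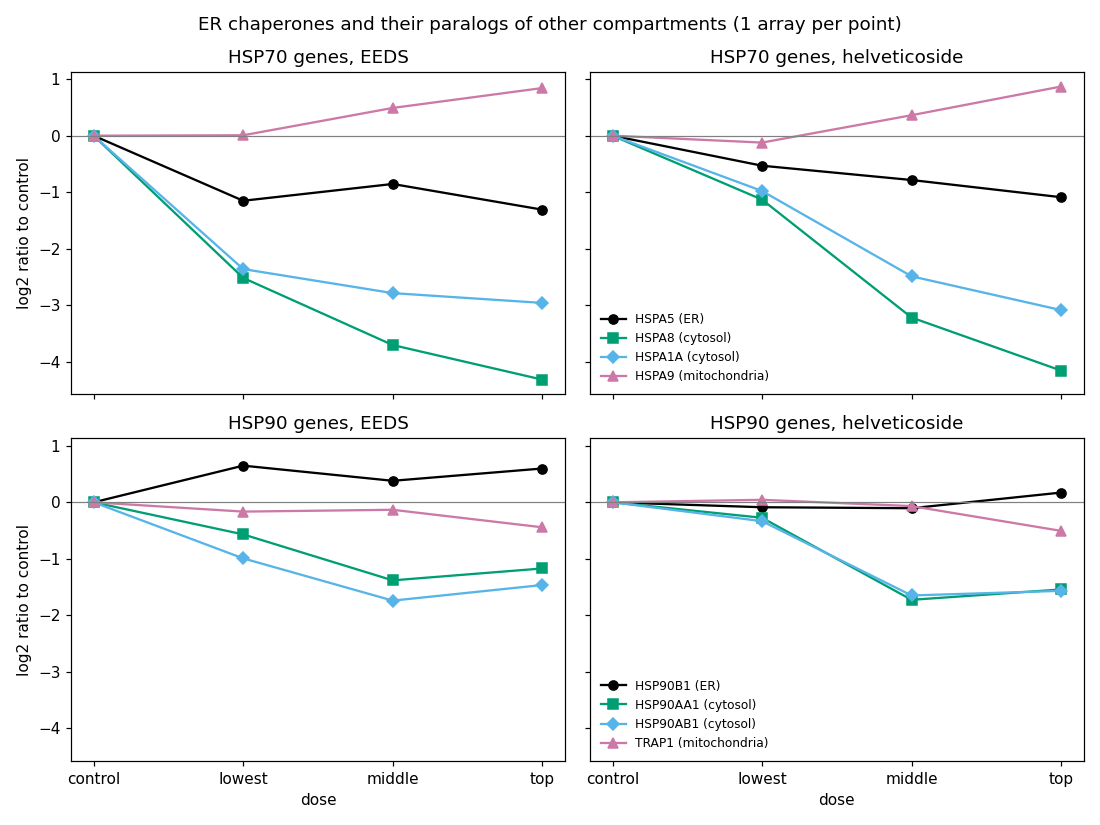
Log2 ratios to the control are plotted against the dose for the HSP70 genes (upper panels) and the HSP90 genes (lower panels) of each series, 1 array per point, with all controls at 0 by construction. At the top doses HSPA8 lay at −4.32 and −4.16, HSPA5 at −1.31 and −1.09 and HSPA9 at 0.84 and 0.87, and HSP90B1 lay above HSP90AA1, HSP90AB1 and TRAP1.

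The third sensor, EIF2AK3 (PERK), had ratios of 0.81 at 20 µg/mL EEDS and −0.02 at 60 nM helveticoside and did not pass (top dose 0.40, limma adjusted p = 0.253). ATF4, which acts downstream of it, was at 1.04 and 0.49 and rose at the top dose by 0.77 (adjusted p = 0.043). DDIT3 (CHOP), a target of ATF4 tied to cell death, had EEDS ratios of 1.32, 2.50 and 4.79. With helveticoside its ratio was at most −0.69 at 3.75 nM, where it was not well above background, then 2.57 and 3.02, and it rose at the top dose by 3.91 (adjusted p = 0.011).

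The remaining genes of the ER were counted by role in lists that contain the 10 genes as well, and the counts are those of the shared top-dose fit, which called 18.5% of all genes higher and 19.9% lower. Of 181 genes in 6 ER lists, 61 rose and 31 fell. Of these 181 genes, 169 were well above background on all 8 arrays. Among all 11493 genes well above background on all 8 arrays, the fit called 3086 higher and 3178 lower. In the list of sensors and transcription factors 8 of 21 rose and 5 fell, among them BAK1, a pro-apoptotic protein of mitochondria and the ER (ratios 1.53 and 1.67), TRAF2, an adaptor of IRE1 (1.60 and 1.17), and the ATF6-like factors CREB3L4 (−3.28 and −3.08) and CREB3L2 (−1.69 and −1.52). Of 49 chaperones and folding enzymes 8 rose and 11 fell. DNAJB9, an ER co-chaperone, was at 1.39 and 0.86 and passed the trend fit for both agents (limma adjusted p = 0.017 and 0.038), HSPA13 was at 1.48 and 1.54, and the secreted stress factors MANF (−1.04 and −0.93) and CRELD2 (−0.81 and −0.80) fell, as did CNPY2 (−3.86 and −3.30).

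In ERAD 11 of 36 genes rose and 8 fell. RNF139, a ubiquitin ligase, was at 1.34 and 0.91, while MAN1A2, a mannosidase, was at −0.99 and −1.85. Of 33 genes for translocation into the ER 18 rose and 1 fell (SSR2, a subunit of the translocon-associated complex, −0.34 and −0.45). SRPRA, the receptor for the signal recognition particle, was at 0.81 and 1.26 and SPCS3, a subunit of signal peptidase, at 1.20 and 1.05. For export from the ER, 8 of 24 rose and 3 fell, with SAR1B, the GTPase of COPII vesicles, at 1.82 and 1.68 and PREB, its exchange factor, at −1.31 and −0.98. Of 18 ER calcium genes 8 rose and 3 fell, the latter with ATP2A2, the pump that loads the ER with calcium, at −2.34 and −2.05.

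Outside these lists, 12 of 21 genes of the PERK and ATF4 branch rose and 4 fell, led by ATF3 (7.02 and 5.40) and PPP1R15A (5.86 and 4.52), whereas 5 of 34 cytosolic and mitochondrial chaperone genes rose and 16 fell. Scaling to the 75th percentile, which moved the median ratio of all genes to −0.36 at 20 µg/mL EEDS and −0.18 at 60 nM helveticoside, raised the share of rising calls in the 6 ER lists from 66.3 to 76.8%. Over all genes that share went from 48.2 to 48.9%, with 3741 rising and 3904 falling calls after the scaling. The scaling turned the balance of the chaperone list, with 13 rising and 9 falling, and moved ERAD to 13 and 4 and export to 12 and 1.

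**Figure D4:**
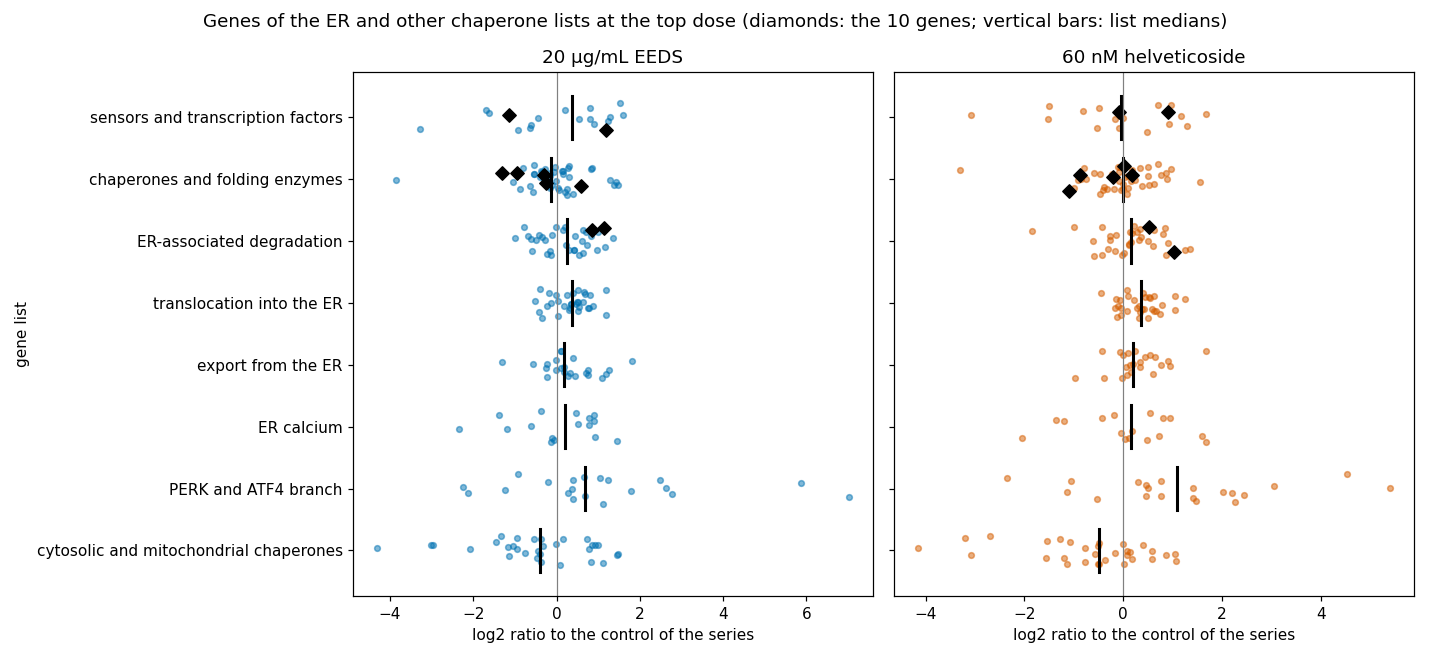
Log2 ratios at 20 µg/mL EEDS (left) and 60 nM helveticoside (right) are plotted for the genes of each list that were well above background on all 8 arrays, 1 point per gene, with diamonds for members among the 10 genes and vertical bars for list medians. Medians for ER chaperones lay at −0.13 and −0.01, those for translocation at 0.37 and 0.36, those of the PERK and ATF4 branch at 0.68 and 1.09 and those of cytosolic and mitochondrial chaperones at −0.39 and −0.50, beside −0.01 and 0.02 over all such genes.

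Genes with these promoter elements lay on both sides of their controls. Of 27305 genes with a promoter, 44 (0.161%) held an exact ERSE or ERSE-II, and 36 of these, with 6 of the 10 genes among them, were on the arrays. At 20 µg/mL EEDS 20 of the 36 were higher than control and 16 lower, with a median ratio of 0.05, and at 60 nM helveticoside 10 were higher and 26 lower, with a median of −0.13. Over all genes the medians were 0.02 and −0.00. The shares of all genes above and below control were not counted, so these counts are no result about the elements. Over the 27 that were well above background on all 8 arrays the EEDS balance turned, with 11 higher and 16 lower and a median of −0.25, and with helveticoside 7 were higher and 20 lower. In the shared top-dose fit 6 of the 36 rose and 8 fell. SDF2L1 and HERPUD1, which both hold an ERSE-II, moved oppositely, and of the genes with an ERSE, HSPA5 fell while HSP90B1 was at 0.60 and 0.17.

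**Figure D5:**
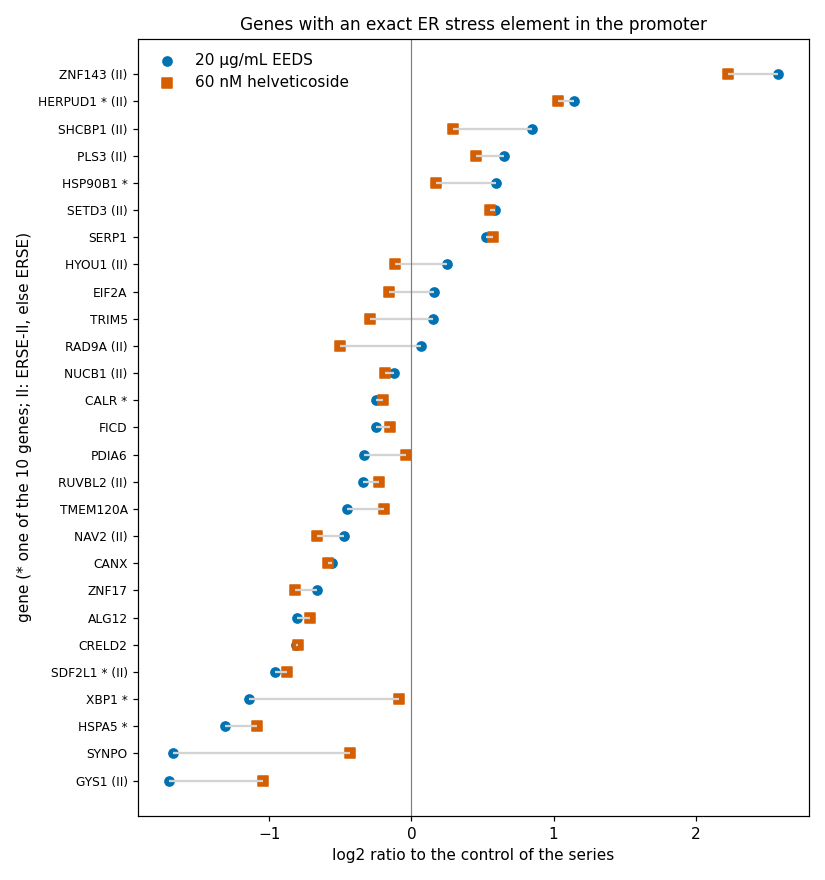
Log2 ratios at 20 µg/mL EEDS (circles) and 60 nM helveticoside (squares) are plotted for the 27 genes with an exact ERSE or ERSE-II that were well above background on all 8 arrays, sorted by the EEDS ratio, with a line joining the values of a gene. HERPUD1 lay at 1.15 and 1.03, SDF2L1 at −0.96 and −0.88 and HSPA5 at −1.31 and −1.09.

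As a check of the label, all 8 epithelial markers were well above background on all 8 arrays, and of 10 markers of blood and vessel cells and fibroblasts 5 were so and 4 (CD3E, PECAM1, VWF and DCN) were not on any array. The summed linear signal of the epithelial list ran from 705350 to 907283 over all arrays. It is carried by KRT7 (levels 18.3 to 19.2) and KRT18 (17.8 to 18.6), while no other marker of that list exceeded 16.0. The summed signal of the other list went from 8287 on the EEDS control to 4018 at 20 µg/mL and from 10470 on the helveticoside control to 5812 at 60 nM. The latter sum is carried by CD79A (−1.17 and −0.71 at the top doses) and CD14 (−1.57 and −2.28), while COL1A1 (0.80 and 0.71), PTPRC (0.20 and 0.20) and CDH5 (0.10 and 0.19) were above control. Of the epithelial markers 1 rose (KRT7, 0.62 and 0.53) and 5 fell at the top dose, with CDH1 the furthest at −2.70 and −2.71, and EPCAM was at 0.05 and −0.26. The part of cell state or cell loss in the ER values was not tested, and fewer cells of a kind cannot be told apart from less RNA per cell.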

How the data were processed

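The authors hybridized pooled RNA of 3 cultures per condition to single-dye Agilent arrays and extracted them with Agilent Feature Extraction (version not given in the sources used here). For each spot they deposited linear intensity values (processed signal, median signal and local background) and 0 or 1 calls for outlier, saturated and well-above-background spots. They also deposited a table of normalized intensity. The labels name the dye Cy5, and the columns carry the names of the green channel. The files hold no slide or scan information.

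After removal of control and outlier spots, replicate spots were averaged on the processed signal, and all 8 arrays were quantile-normalized before taking log2. Of 34127 probes, 24812 matched 19056 genes, and for 4797 genes with several probes the brightest on average was used. Genes were kept when the median signal reached 1.4 times the local background on at least 1 array of a series, and lower values were set to the lowest detected signal. Trends were fitted with limma 3.58.1 (R 4.3.3, statmod 1.5.0; trend and robust estimation) with separate intercepts and slopes for the series, 4 residual degrees of freedom and Benjamini-Hochberg adjustment over all genes at 0.05, and the fits were tested on simulated data. With 1 array per dose, p-values rest on departures from the fitted line. Counts, ratios and promoter searches used Python 3.11.15 with pandas 2.3.3.

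The 10 genes and the gene lists were chosen with earlier results of these data known. Named genes are the 10 genes, up to 3 with the highest and 3 with the lowest mean ratio at the top doses of each list, the 3 most like HSPA5, HERPUD1 and EDEM1, and close relatives; the values of some are not reported here. Alternatives changed the background correction, normalization, filter, probe choice, intercept, arrays in the fit and variance estimate, or took the table of the authors, and the fit on shared dose steps was added after the data were seen.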

Additional observations from a re-analysis of the deposited data

Results flagged for a closer look

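PDIA4 was singled out because its 3 EEDS arrays all lay below their control (ratios of −0.04, −0.14 and −0.30) and its 3 helveticoside arrays all lay above theirs (0.38, 0.01 and 0.01). The EEDS control had the highest and the helveticoside control the lowest level of all 8 arrays, which by itself sets these sides. The slope difference, helveticoside minus EEDS, was 0.0673 per step (SE 0.10, limma adjusted p = 1.0), and the controls of the series differed by −0.39 for this gene.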

How the results depend on the processing

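Each group had 1 array, so no replicate could be left out. No paired analysis was possible because each group holds 1 array, so replicate numbers pair nothing; the fit on shared dose steps pairs arrays by dose step instead. The count of the 10 genes whose EEDS slope passed was 0 as reported, beside 2894 of all genes. It was 1 with the signal as scanned and 1 with normexp (ATF6), beside 3549 and 3575 of all genes. With scaling to the 75th percentile it was 2 (ATF6 and HERPUD1), beside 3986. With the values of the authors it was 2 (HSPA5 and ATF6), beside 4610. It was 3 over genes well above background on all 8 arrays, beside 3603 of those 11493 genes, and 4 with a shared intercept, beside 5179 of all genes. For helveticoside it was 0 as reported, beside 2161 of all genes, and 1 with scaling to the 75th percentile (HERPUD1), beside 2490. It was 2 over genes well above background on all 8 arrays (HERPUD1 and SDF2L1), beside 2778 of those 11493 genes. Over all genes the calls ran from 0 to 5179 for EEDS and from 0 to 3713 for helveticoside, beside 2894 and 2161 as reported. They were 0 for both agents without the lowest dose, without the middle dose or with only the 4 arrays of the series. With the control against the 2 upper doses they were 121 for EEDS and 108 for helveticoside. With shared dose steps, 4 or 5 of the 9 genes passed at the middle dose and 4 or 5 at the top dose under 9 other settings. Over all genes of each setting the calls ran from 3695 to 4975 at the middle dose and from 6797 to 7645 at the top dose. HSPA5, SDF2L1, EDEM1 and CALR at the middle dose passed in all 9 settings, as did HSPA5, SDF2L1, ATF6 and HERPUD1 at the top dose. The median ratio at 20 µg/mL EEDS was −0.25 without ERN1, the gene that the stricter filter removes. The count over 2-fold at 60 nM helveticoside fell from 2 to 1 with scaling to the 75th percentile and to 1 with the control of the other series.

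Slopes changed sign where they were near 0, none past the threshold. That of PDIA4 for helveticoside became 0.0437 with scaling to the 75th percentile, 0.00507 without the lowest dose and 0.0142 with the control against the upper doses. That of XBP1 for helveticoside became −0.0685 with a shared intercept and −0.0077 without the middle dose. Slope differences changed sign for SDF2L1 and CALR with scaling to the 75th percentile (0.00819 and 0.0192), a shared intercept (0.0791 and 0.0541), no lowest dose (0.0447 and 0.0189) and the upper doses (0.19 and 0.0572), for HERPUD1 under the last 3 of these (−0.20, −0.0405 and −0.11), and for PDIA4 with a shared intercept (−0.0485). The cause was not tested.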
